A study of Homo sapiens with 8 samples.

Results

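The genes RBM3, RBM4, RBM5, RBM6, RBM10, RBM17, RBM23, RBM25 and RBM39 belong to the RNA-binding motif (RBM) family of splicing factors and RNA-binding proteins. They were followed through every skipped-exon event listed under their symbols, 9 of the 13437 genes listed for at least 1 line. An event is an exon with the 2 exons that flank it, and the same exon can be listed with several flanks. MCF10A cells had 106 such events of 82355, and HMLE TWIST cells had 138 of 98244, which made 164 distinct events. Of these, 69 events of 53 exons in 8 of the genes had enough reads to be tested in at least 1 line, and no event of RBM17 did.

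The study measured polyadenylated RNA in 8 libraries, 2 biological replicates in each of 4 groups. MCF10A is an immortalised, non-tumorigenic human breast epithelial line. HMLE TWIST is an immortalised human breast epithelial line that carries the transcription factor TWIST from a retroviral pBabe vector. Each line was grown for 24 h with DMSO solvent as the control or with 10 µM emetine, a plant alkaloid that blocks translation. The series concerns regulation of alternative splicing through RNA G-quadruplexes, structures formed by runs of guanines. Line and transgene cannot be told apart in any comparison between MCF10A and HMLE TWIST, since neither parental HMLE cells nor another TWIST line is among the groups.

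RBM proteins bind RNA through RNA recognition motifs, and many act on the choice of splice sites. RBM5, RBM6 and RBM10 are close relatives that control alternative exons of apoptosis and cell fate genes such as FAS, CASP2 and NUMB. RBM39 and its relative RBM23 resemble the splicing factor U2AF65, and RBM39 and RBM17 act at the 3′ splice site. RBM25 works with the U1 particle at the 5′ splice site, RBM4 binds pyrimidine-rich RNA, and RBM3 is induced by cold. Many splicing factor genes contain poison exons, alternative exons that bring in an early stop codon and send the transcript to nonsense-mediated decay, a pathway that depends on translation.

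The tables held 78412292 to 91259363 junction reads per library, summed over events. The labelled lines were checked on the reads of the deepest event of epithelial and mesenchymal genes. Of 9 epithelial genes, 7 had an event in MCF10A and 5 in HMLE TWIST. EPCAM and KRT18 had none in either line, and KRT5 and OCLN had none in HMLE TWIST. Their summed reads were 63496 and 65328 in MCF10A controls and 37860 and 38695 with emetine, and 84 to 152 in the 4 HMLE TWIST libraries. Of 9 mesenchymal genes, 6 had an event in MCF10A and 8 in HMLE TWIST. SNAI2 had none in either line, and CDH2 and PDGFRB had none in MCF10A. Their summed reads were 25249 and 28620 in MCF10A controls and 6267 and 6759 with emetine, mostly of VIM, and 291944 and 271625 and then 184451 and 159400 in HMLE TWIST, mostly of VIM and FN1. HMLE TWIST libraries thus carried mesenchymal and very few epithelial reads, although the line is of epithelial origin. Summed marker reads were also lower with emetine, apart from the epithelial reads of HMLE TWIST, which overlapped. Single markers did not all follow the sums. TWIST1 reads went from 14 and 5 to 51 and 108 in MCF10A, and from 126 and 168 to 169 and 199 in HMLE TWIST. ZEB2 was likewise higher with emetine in both lines, and FBN1 in MCF10A. CDH2 in HMLE TWIST and OCLN in MCF10A were among those that overlapped. The part of these differences in the results below was not tested.

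The inclusion level of an event, from 0 to 1, is the share of its inclusion form among its inclusion and skipping forms. It is computed from junction reads corrected for the length of each form. Only the junctions of that event are counted, so the level is not the share of all transcripts of the gene that contain the exon. A change is the mean of the emetine libraries less the mean of the controls. An event is called changed where the quasi-binomial test, adjusted over all events of the fit, gave p under 0.05 and the level moved by at least 0.1. All values below are of 2 libraries a group, given in the order the tables list them. Positions are those of the deposited tables, GRCh37 per the submitters' processing notes, and exon numbers are those of GENCODE 29 transcripts.

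In MCF10A, 9 of 56 tested RBM events changed under emetine, 8 of them toward inclusion, in RBM4, RBM6, RBM23 and RBM39. Over all events of that fit 13.0% were called, 7.90% toward inclusion and 5.15% toward skipping. In HMLE TWIST, 12 of 58 changed, 9 toward inclusion and 3 toward skipping, in RBM3, RBM4, RBM5, RBM6, RBM23 and RBM39, against 14.0% of all events (6.11% and 7.91%). Without length correction 8 rose and 0 fell there, and without the first control likewise 8 and 0. The members were not tested against all events. Emetine and control libraries did not overlap in 39 of 56 RBM events of MCF10A (67.4% of all events) and in 47 of 58 of HMLE TWIST (69.9%). The median change of the tested RBM events was 0.00428 in MCF10A and 0.000281 in HMLE TWIST, beside -0.000168 and -0.00315 over all tested events. Of 45 RBM events tested in both lines, 5 were called in both and all 5 rose in both, while 8.66% of all 19025 such events were called in both. The share of all events that rose in both was not computed. The 5 are not independent, since RBM6 exons 5 and 6 among them share skipping reads. The MCF10A calls of RBM6 exon 6 and of the RBM23 exon were lost in all or most of the fits that left out a library. In HMLE TWIST the calls of RBM6 exons 5 and 6 were lost in most such fits, and that of RBM4 without the first emetine library. limma on log2 odds called 5 RBM events in MCF10A (7.88% of all) and 7 in HMLE TWIST (9.94% of all). In the authors' deposited table, 11 RBM events of MCF10A and 12 of HMLE TWIST had a false discovery rate under 0.05 and a difference of at least 0.1 (6.93% and 7.59% of all), and these include the 9 and 12 called here.

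**Figure D1:**
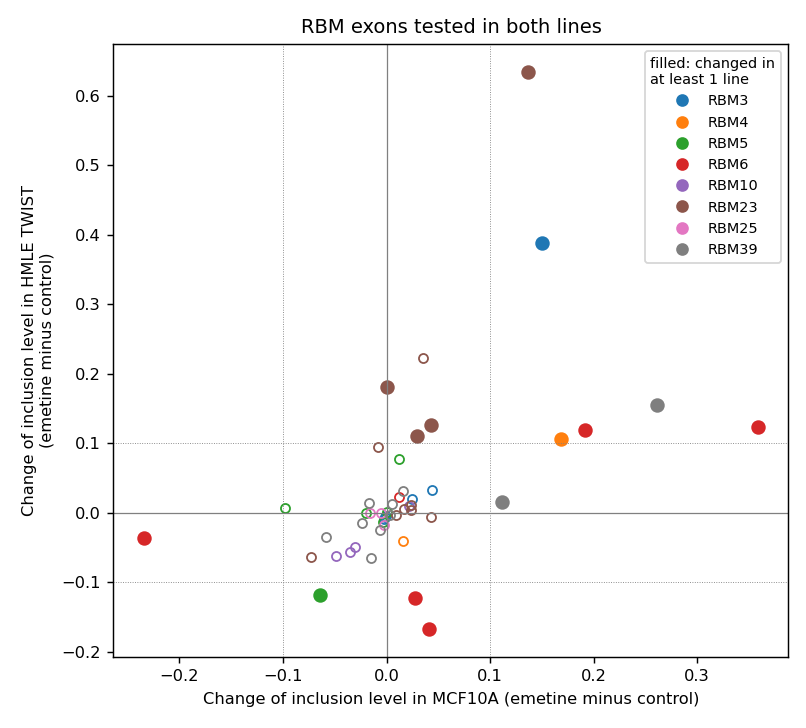
Change of inclusion level under emetine in MCF10A (x axis) and HMLE TWIST (y axis), each a mean of 2 libraries minus a mean of 2, for the 49 RBM events tested in both lines with the same exon and junctions (45 of them with equal outer ends of the flanking exons). Filled points are the 14 events called changed in at least 1 line, dotted lines mark changes of 0.1, and the open points lie inside 0.1 on both axes except where a change did not pass the test.

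RBM39, a partner of the U2 particle, has 2 exons with early stop codons in 1 intron. Against the junction that skips both, emetine raised inclusion of the first in both lines and of the other in MCF10A. The 73-nucleotide exon of RBM39 (chr20:34328447-34328519, minus strand) matched exon 3 of RBM39-206, a transcript annotated as a target of nonsense-mediated decay. It contains that transcript's stop codon. The sequence is shown because it carries the stop, from the start of the exon to the stop codon in capitals (72 of 73 bases, 5′ to 3′, from the GENCODE 29 transcript).
RBM39 73-nucleotide exon: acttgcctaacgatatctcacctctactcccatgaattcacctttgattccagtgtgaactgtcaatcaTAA
Inclusion was 0.325 and 0.287 in MCF10A controls and 0.592 and 0.542 with emetine. The HMLE TWIST values were 0.203 and 0.241 in controls and 0.382 and 0.371 with emetine. In both lines the emetine libraries lay above both controls without overlap. The mean rose from 0.306 ± 0.0269 to 0.567 ± 0.0347 (SD, n = 2) in MCF10A, a change of 0.261 (adjusted p = 7.14e-06), and from 0.222 ± 0.0272 to 0.377 ± 0.00795 in HMLE TWIST, a change of 0.155 (adjusted p = 0.000386). The call held without each of the 4 libraries in both lines, but limma gave adjusted p = 0.0592 and 0.122. In MCF10A the exon was also tested against a junction that ends at the 155-nucleotide exon described next. There its change was 0.00672 (quasi-binomial adjusted p = 0.533), so the rise was not seen by that event. The difference between the 2 changes was -0.106 (interaction, adjusted p = 0.216), so a difference between the lines was not shown.

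A further exon in the same intron of RBM39, 155 nucleotides long (chr20:34327315-34327469), shares the skipping junction of the 73-nucleotide exon, and the 2 are therefore not independent. It is exon 3 of RBM39-209, also annotated for nonsense-mediated decay, and also contains the stop. Its inclusion in MCF10A was 0.031 and 0.0186 in controls and 0.121 and 0.151 with emetine, both above the controls. The change was 0.111 (adjusted p = 4.38e-05), which fell below the size of 0.1 without the second emetine library, at 0.0958, and was 0.191 without length correction. In HMLE TWIST the levels were 0.0131 and 0.0183 in controls and 0.0272 and 0.0363 with emetine, a change of 0.016 (adjusted p = 0.0569). The interaction was -0.095 (adjusted p = 0.119). The shared skipping junction had 344 and 449 reads in MCF10A controls and 423 and 402 with emetine, while inclusion reads of the 73-nucleotide exon went from 286 and 312 to 1058 and 823.

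The other tested RBM39 exons moved by less than 0.1. A coding exon listed as 51 or 54 nucleotides (chr20:34317234-34317284 and chr20:34317234-34317287; exon 6 of RBM39-204 and RBM39-201) was nearly always included. The 51-nucleotide form went from 0.991 and 1 to 0.929 and 0.944 in MCF10A, a change of -0.0588 (adjusted p = 0.00135). It went from 0.979 and 0.997 to 0.956 and 0.951 in HMLE TWIST, a change of -0.0341 (adjusted p = 0.041). In both lines the emetine libraries were lower than both controls, below the size threshold. Over all RBM39 events, 7 of 14 in MCF10A and 8 of 10 in HMLE TWIST passed the adjusted p at any size, against 33.4% and 35.6% of all events, and the remaining changes lay between -0.0656 and 0.0316.

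RBM4 had a single changed exon. This 110-nucleotide exon (chr11:66412105-66412214, plus strand) is exon 2 of RBM4-209, a noncoding processed transcript, while the skipping form is protein coding. All 3 RBM4 events share splice sites with the read-through gene RBM14-RBM4, so reads of the 2 genes cannot be told apart. Inclusion was 0.00598 and 0.0198 in MCF10A controls and 0.18 and 0.182 with emetine. Its HMLE TWIST levels were 0.00476 and 0.00543 in controls and 0.118 and 0.103 with emetine. The exon was nearly absent from all 4 control libraries and present in all 4 emetine libraries. The change was 0.168 in MCF10A (adjusted p = 3.6e-07; limma 0.023) and 0.106 in HMLE TWIST (adjusted p = 3.13e-05; limma 0.0113), where it was 0.0981, under the size threshold, without the first emetine library. Without length correction the changes were 0.281 and 0.189. The interaction was -0.0623 (adjusted p = 0.752). Inclusion reads went from 7 and 24 to 1449 and 1526 in MCF10A, and skipping reads were also higher, from 582 and 595 to 3302 and 3432.

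The 691-nucleotide RBM4 exon (chr11:66410921-66411611; exon 3 of RBM4-201), which is partly coding, was included at 0.884 and 0.915 in MCF10A controls and 0.926 and 0.905 with emetine. In the HMLE TWIST libraries it was at 0.93 and 0.936 in controls and 0.891 and 0.896 with emetine, so only there did the groups not overlap. The interaction of -0.0557 passed the test (adjusted p = 0.0379) but not the size of 0.1.

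RBM3 used a pair of alternative exons in the intron after its exon 3, of 269 and 162 nucleotides (chrX:48434203-48434471 and chrX:48434310-48434471), exon 4 of the noncoding transcripts RBM3-204 and RBM3-209. Against the junction of exon 3 to the next coding exon, the 269-nucleotide exon was included at 0.00553 and 0.0109 in MCF10A controls and 0.0525 and 0.051 with emetine. In HMLE TWIST it went from 0.00437 and 0.00589 to 0.0385 and 0.0376. All emetine libraries were above all controls, with changes of 0.0435 (adjusted p = 5.63e-07) and 0.0329 (adjusted p = 6.53e-06) that did not reach the size of 0.1. The 162-nucleotide form was higher by 0.0241 and 0.0195. Coding exon 3 itself, listed with lengths of 107 and 70 nucleotides, was included at 0.96 to 1 in every library. So was a 523-nucleotide entry, whose length is that from the start of the 107-nucleotide form to the end of the alternative exons. That entry is not read here as use of coding exon 3. None of these passed in either line (adjusted p from 0.138 to 0.445).

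The same 269-nucleotide exon is also listed against the longer junction that leaves out exon 3, which is rare. There its level in HMLE TWIST was 0.198 and 0.232 in controls and 0.636 and 0.57 with emetine, a called change of 0.388 (adjusted p = 0.000426; limma 0.022) that held without each of the 4 libraries. In MCF10A the controls were at 0.565 and 1, on 36 and 65 reads, and the emetine libraries at 0.953 and 0.913, inside the range of the controls. The change there was 0.15 (adjusted p = 0.29), and it was -0.0669 without the first control. The interaction was 0.238 (adjusted p = 0.713). Between the control groups this event was lower in HMLE TWIST by 0.568 (adjusted p = 5.06e-08; limma 0.236), on 0 to 10 skipping reads in MCF10A and 53 and 81 in HMLE TWIST.

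**Figure D2:**
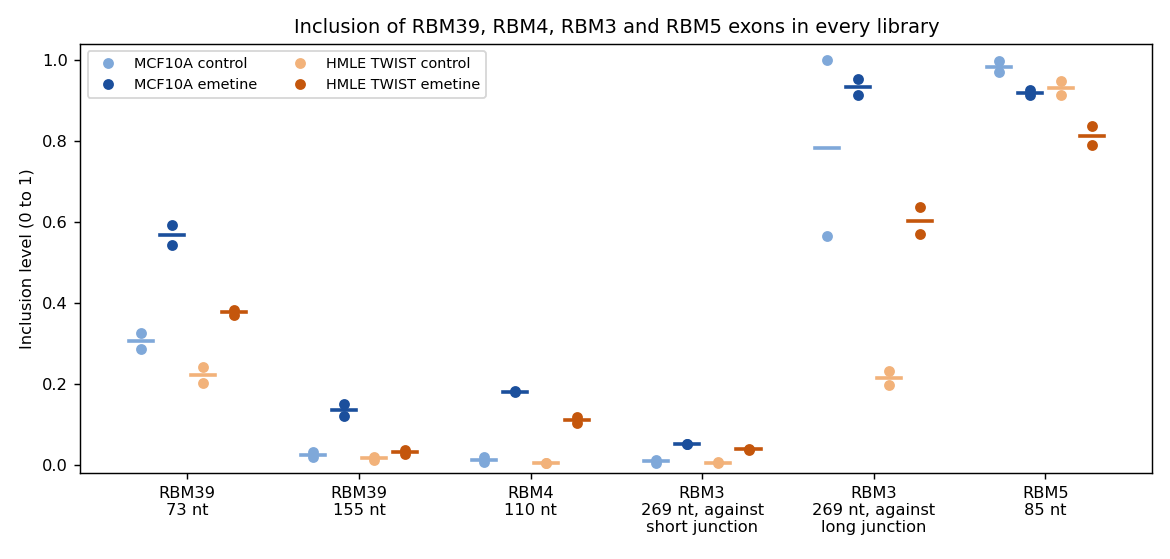
Inclusion level (y axis, 0 to 1) of 6 events in exons of RBM39, RBM4, RBM3 and RBM5, the same RBM3 exon against a short and a long junction. Points are libraries, bars are means of 2, and colours are the 4 groups. The emetine points of the RBM39 73-nucleotide, RBM4 and RBM3 short-junction exons lie above the control points of the same line, and those of the 85-nucleotide RBM5 exon 16 lie below.

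RBM5, RBM6 and RBM10 each have an exon 6 of 74 nucleotides in the main coding transcript, a length that is not a multiple of 3. The 3 sequences are shown because the exons have the same length and position. No test compared the exons of the 3 genes. Capitals mark the 45 of 74 bases that are equal in all 3 (60.8%, GENCODE 29 transcripts RBM5-201, RBM10-201 and RBM6-201, 5′ to 3′).
RBM5 exon 6: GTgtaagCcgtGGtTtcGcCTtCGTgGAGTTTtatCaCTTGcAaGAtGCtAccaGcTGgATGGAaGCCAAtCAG
RBM10 exon 6: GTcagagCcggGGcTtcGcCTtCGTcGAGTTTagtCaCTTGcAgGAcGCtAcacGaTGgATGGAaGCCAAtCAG
RBM6 exon 6: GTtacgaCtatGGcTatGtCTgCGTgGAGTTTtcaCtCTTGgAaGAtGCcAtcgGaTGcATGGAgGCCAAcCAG
RBM5 and RBM10 shared 61 bases (82.4%), RBM5 and RBM6 51 (68.9%) and RBM10 and RBM6 48 (64.9%). The RBM5 exon (chr3:50137965-50138038, plus strand) was included at 0.966 and 0.948 in MCF10A controls and 0.954 and 0.984 with emetine, which overlap. In HMLE TWIST it was at 0.903 and 0.846 in controls and 0.948 and 0.956 with emetine, higher by 0.0776 (adjusted p = 0.0159) but under the size of 0.1. The RBM10 exon (chrX:47034418-47034491, plus strand) was lower in both lines, from 0.993 and 0.988 to 0.952 and 0.958 in MCF10A and from 0.986 and 0.96 to 0.93 and 0.904 in HMLE TWIST. These changes of -0.0354 (adjusted p = 0.00671) and -0.0562 (adjusted p = 0.013) also stayed under the size threshold. The RBM6 exon is described with its neighbours below. The run GGG occurs in the RBM10 exon and not in the other 2; it is present in 49.6% of 974 exons of this length in protein-coding transcripts, and CCC, its form on the opposite strand, is in none of the 3 and in 49.5% of those exons.

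RBM10 is known to promote skipping of its own exons 6 and 12 and of RBM5 exons 6 and 16, each of which shifts the reading frame. RBM10 exon 12 (chrX:47039818-47039905) had no skipping read in any control library, at a level of 1 in all 4. The 708 to 995 reads there allow a skipped share of reads of up to 0.302% to 0.424% (3 reads, counting error only). With emetine it was at 0.96 and 0.979 in MCF10A and at 0.954 and 0.949 in HMLE TWIST, on 32, 18, 65 and 81 skipping reads. Skipping was thus seen in every emetine library and in no control, with changes of -0.0303 (adjusted p = 0.00436; limma 0.0145) and -0.0486 (adjusted p = 0.000516; limma 0.0113). RBM10 exon 4 (chrX:47030427-47030657), a coding exon of 231 nucleotides that keeps the frame, was at 0.937 ± 0.0257 and 0.888 ± 0.033 in MCF10A and at 0.944 ± 0.00685 and 0.883 ± 0.00267 (SD, n = 2) in HMLE TWIST. It was lower by 0.0614 in HMLE TWIST (change -0.0614, adjusted p = 0.00516) and did not pass in MCF10A (adjusted p = 0.0783). None of the 4 RBM10 events tested in MCF10A or 7 tested in HMLE TWIST reached the size of 0.1. Those that passed the adjusted p were 1 higher and 2 lower in MCF10A and 4 lower in HMLE TWIST. Over all events 33.4% and 35.6% passed it at any size. The higher one was a 98-nucleotide exon of the noncoding RBM10-204, at 0.00472 and 0.00618 in MCF10A controls and 0.0205 and 0.033 with emetine (adjusted p = 0.00889). The other lower one in HMLE TWIST was exon 2 (142 nucleotides in RBM10-203), with a change of -0.0127 (adjusted p = 0.0322). The remaining 3 HMLE TWIST events had changes between -0.00623 and 0.00942 and did not pass.

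RBM5 exon 16 (chr3:50147812-50147896, 85 nucleotides, coding in RBM5-201) was included at 0.997 and 0.971 in MCF10A controls and 0.926 and 0.913 with emetine. HMLE TWIST had 0.948 and 0.914 in controls and 0.789 and 0.836 with emetine. Both lines had lower levels in every emetine library. The change was called in HMLE TWIST, at -0.118 (adjusted p = 0.00884; limma 0.0729), and was -0.0642 in MCF10A (adjusted p = 0.00514), with no difference between the lines shown (interaction -0.0538, adjusted p = 0.68). The call was lost without the first control or the first emetine library of HMLE TWIST, with adjusted p up to 0.0847 and a change between -0.141 and -0.0946. It was -0.0722, under the size threshold, without length correction. Skipping reads went from 13 and 21 to 216 and 168. RBM5 exon 8 (chr3:50141681-50141741, 61 nucleotides) was the coding RBM5 exon most often skipped, at 0.86 and 0.688 in MCF10A controls, 0.667 and 0.685 with emetine, and between 0.642 and 0.666 in the 4 HMLE TWIST libraries. It passed in neither line (adjusted p = 0.0665 and 0.881). The other RBM5 events, 3 in MCF10A and 5 in HMLE TWIST, had changes between -0.0197 and 0.0363 and did not pass (adjusted p from 0.194 to 0.963).

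The frame-shifting exons that RBM10 is known to act on, other than exon 6 of both genes, are shown with runs of 3 or more G in capitals, and RBM23 exon 4, described below, follows (5′ to 3′, GENCODE 29).
RBM5 exon 16: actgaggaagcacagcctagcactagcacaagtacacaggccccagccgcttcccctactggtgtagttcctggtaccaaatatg
RBM10 exon 12: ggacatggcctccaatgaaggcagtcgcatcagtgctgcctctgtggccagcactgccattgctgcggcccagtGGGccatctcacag
RBM23 exon 4: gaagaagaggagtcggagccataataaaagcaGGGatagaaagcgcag
RBM5 exon 16 had no such run, and RBM10 exon 12 and RBM23 exon 4 had 1 each. GGG was present in 53.5%, 58.1% and 35.1% of exons of 85, 88 and 48 nucleotides in protein-coding transcripts. CCC was present in RBM5 exon 16 and RBM10 exon 12 and in 61.1%, 59.5% and 39.3% of such exons. These are counts of letters in the exons only and say nothing of the introns.

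RBM6, the relative of RBM5 next to it on the chromosome, changed in the stretch from exon 2 to exon 7. The junction that joins exon 2 directly to exon 7 (from chr3:50000118 to chr3:50085678), as in RBM6-210, had 102 and 93 reads in MCF10A controls and 26 and 20 with emetine, and 166 and 159 and then 96 and 101 in HMLE TWIST. Each RBM6 event measured against this junction uses those same skipping reads, so these events are not independent. Exon 5 (chr3:50012756-50012825, 70 nucleotides) was at 0.0989 and 0.0921 in MCF10A controls and 0.494 and 0.414 with emetine. HMLE TWIST had 0.116 and 0.0817 in controls and 0.279 and 0.166 with emetine. In both lines emetine libraries were higher, by 0.358 (adjusted p = 0.000293; limma 0.0193) and 0.123 (adjusted p = 0.0259; limma 0.132). The first value held without each of the 4 libraries, and the HMLE TWIST call was lost without either control or the first emetine library, with adjusted p up to 0.199 and a change between 0.0666 and 0.18. The interaction was -0.235 (adjusted p = 0.171).

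Exon 3 of RBM6 is listed with 1279 and 1551 nucleotides (chr3:50004903-50006181 and chr3:50004631-50006181). Against the junction from exon 2 to 7, tested in MCF10A only, the shorter form was at 0.346 and 0.402 in controls and 0.658 and 0.718 with emetine, a change of 0.314 (adjusted p = 0.001). The longer form went from 0.0811 and 0.0412 to 0.325 and 0.273, a change of 0.238 (adjusted p = 0.00264). Against the junction from exon 2 to 4 the same exon moved the other way in HMLE TWIST. There the shorter form was at 0.947 and 0.956 in controls and 0.864 and 0.795 with emetine, a change of -0.122 (adjusted p = 0.0212), and the longer form changed by -0.167 (adjusted p = 0.0244). That skipping junction had 7 and 4 reads in HMLE TWIST controls and 30 and 42 with emetine, and 5 and 6 and then 2 and 0 in MCF10A. Without the first control, the second control or the second emetine library both HMLE TWIST calls were lost, with adjusted p up to 0.105 and 0.13. Without length correction the changes were -0.0686 and -0.0992, under the size threshold. In MCF10A the changes of these 2 events were 0.0272 and 0.0409 and did not pass, and the interactions were -0.149 (adjusted p = 0.0656) and -0.208 (adjusted p = 0.0604).

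Exon 6 of RBM6 (chr3:50036873-50036946), the 74-nucleotide exon printed above, also gave opposite directions by its flank. From exon 2 it was at 0.303 and 0.305 in MCF10A controls and 0.47 and 0.522 with emetine, and at 0.165 and 0.153 and then 0.293 and 0.264 in HMLE TWIST. The changes of 0.192 (adjusted p = 0.0279) and 0.119 (adjusted p = 0.0141) were calls, but the MCF10A call was lost without any 1 of the 4 libraries, with adjusted p up to 0.142. The HMLE TWIST call was lost without either control or the first emetine library, with adjusted p up to 0.077. From exon 5, as in RBM6-201, it was at 0.822 and 0.847 in MCF10A controls and 0.512 and 0.69 with emetine, a change of -0.234 (adjusted p = 0.0054), with both emetine libraries lower. Without the first emetine library that change was -0.145 and was not called (adjusted p = 0.0743). In HMLE TWIST the same event was at 0.662 and 0.711 in controls and 0.599 and 0.702 with emetine, which overlap (change -0.036, adjusted p = 0.574; interaction 0.198, adjusted p = 0.0972). In the exon 6 event from exon 5, the skipping junction is also an inclusion junction of the exon 5 event described above. The fall of exon 6 there and the rise of exon 5 in MCF10A thus share reads and are not independent. The reads per library behind RBM6 exon 6 from exon 2 were 58 to 223. Of the other RBM6 exons, a 61-nucleotide coding exon was higher by 0.0259 in HMLE TWIST (adjusted p = 0.0263) and a 35-nucleotide untranslated exon by 0.0231 (adjusted p = 0.0287). A further RBM6 event lay in the neighbouring gene RBM5, whose splice sites the read-through transcript RBM6-207 shares.

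**Figure D3:**
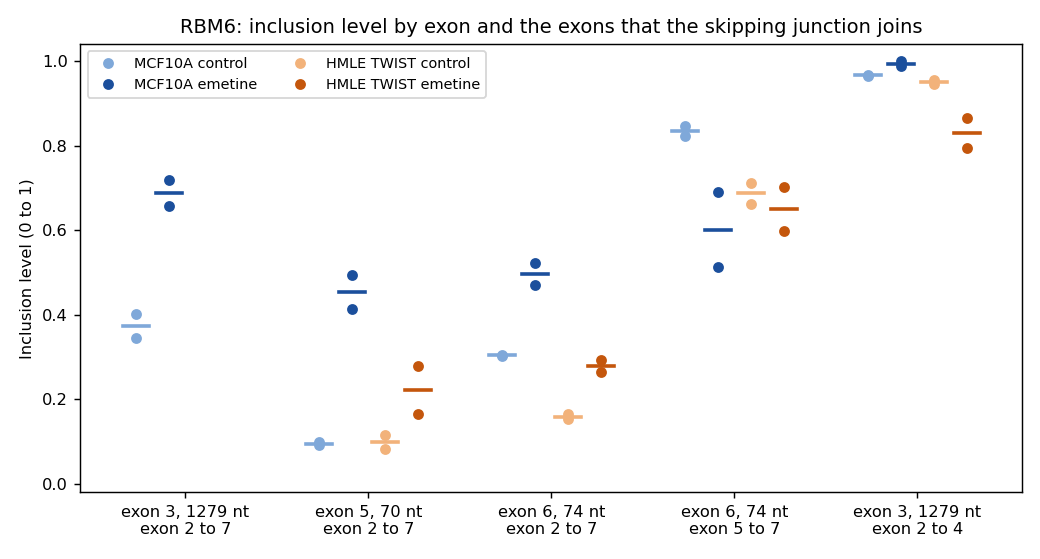
Inclusion level (y axis, 0 to 1) of RBM6 exons 3, 5 and 6; under each exon stand the exons that its skipping junction joins. Points are libraries and bars means of 2: emetine points lie above controls for the junction from exon 2 to 7, and below them for exon 6 between exons 5 and 7 in MCF10A and for exon 3 between exons 2 and 4 in HMLE TWIST.

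RBM23 held the 2 events whose response to emetine differed between the lines, the only ones called among 61 RBM events tested for this (1.60% of all 31825 events were called, 0.518% higher and 1.08% lower in HMLE TWIST). At any size 3 of the 61 had an adjusted p under 0.05, against 2.66% of all events. Both are forms of exon 4 between exons 3 and 5. The 48-nucleotide form (chr14:23377542-23377589, minus strand), printed above, keeps the reading frame and is coding in RBM23-203. It was at 0.148 and 0.148 in HMLE TWIST controls and 0.303 and 0.354 with emetine, a change of 0.181 (adjusted p = 0.000736; limma 0.0617). In MCF10A it was at 0.335 and 0.287 in controls and 0.275 and 0.348 with emetine, which overlap, a change of -4.9e-05 (adjusted p = 0.995). With emetine the HMLE TWIST libraries thus reached the range of MCF10A. The interaction was 0.181 (adjusted p = 0.0014) and was called without each of the 8 libraries. limma gave adjusted p = 0.401 for it and called none of the 61 interactions, nor any of all events, with 4 of the 61 at an unadjusted p under 0.05.

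The 67-nucleotide form, which shifts the frame, uses an earlier 3′ splice site (chr14:23377542-23377608) and is exon 4 of the noncoding RBM23-225. It was at 0.027 and 0.0347 in HMLE TWIST controls and 0.115 and 0.137 with emetine, and at 0.118 and 0.104 and then 0.0935 and 0.112 in MCF10A. The change was 0.0952 in HMLE TWIST (adjusted p = 0.000919), just under the size of 0.1 and 0.143 without length correction, and -0.0082 in MCF10A (adjusted p = 0.725). The interaction of 0.103 (adjusted p = 0.000606; limma 0.259) was called in 4 of 8 fits that left out 1 library. It was lost, with a difference as low as 0.0925, without the first control or the first emetine library of MCF10A, or without the first control or the second emetine library of HMLE TWIST. Both forms use the same skipping reads and share a splice site, so they are not independent.

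The same RBM23 exon is also listed against the junction from exon 1 to 5, which leaves out exons 2 to 4. That junction had few reads, 5 and 6 in MCF10A controls, 3 and 0 with emetine, 22 and 27 in HMLE TWIST controls and 6 and 3 with emetine. Against it the 48-nucleotide exon was at 0.859 and 0.829 in MCF10A controls and 0.961 and 1 with emetine. The HMLE TWIST levels were 0.286 and 0.334 in controls and 0.922 and 0.967 with emetine, the widest change among the RBM events tested. The changes were 0.136 (adjusted p = 0.0361; limma 0.0814) and 0.634 (adjusted p = 0.000307; limma 0.0115). The MCF10A call held in 1 of 4 fits that left out a library, with adjusted p up to 0.155 without the first or second control or the second emetine library, and the HMLE TWIST call in all 4. Without length correction the MCF10A change was 0.098, under the size threshold. The interaction, tested on the odds, gave adjusted p = 0.603 for a difference of 0.498. Against the junction from exon 2 to 5 the exon was at 0.452 and 0.64 in HMLE TWIST controls and 0.758 and 0.779 with emetine, which did not pass (adjusted p = 0.0596). Exons 3 (113 nucleotides) and 2 (76 nucleotides) share the junction from exon 1 to 5, and against it they rose in HMLE TWIST by 0.127 (adjusted p = 0.00162) and 0.111 (adjusted p = 0.00121). Both calls were lost without length correction, at 0.0688 and 0.0669. By their other junctions neither was called there, with changes of -0.0037 and 0.00555 for exon 3 and -0.00477 for exon 2. In MCF10A the changes against the junction from exon 1 to 5 were 0.0428 and 0.0294, under the size threshold. A 54-nucleotide coding exon of RBM23 (chr14:23374815-23374868, exon 6 of RBM23-203) was lower in both lines, from 0.995 and 0.979 to 0.914 and 0.914 in MCF10A and from 0.934 and 0.896 to 0.865 and 0.838 in HMLE TWIST. These changes of -0.0726 (adjusted p = 0.000672) and -0.0634 (adjusted p = 0.0312) were under the size of 0.1. Untranslated exons between exons 1 and 2, of 98, 122 and 139 nucleotides, were higher in MCF10A by 0.0239, 0.0433 and 0.0235 (adjusted p = 0.0418, 0.0153 and 0.0107). In HMLE TWIST they did not pass (adjusted p from 0.0592 to 0.594), nor did another of 118 nucleotides tested in MCF10A alone (adjusted p = 0.445).

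**Figure D4:**
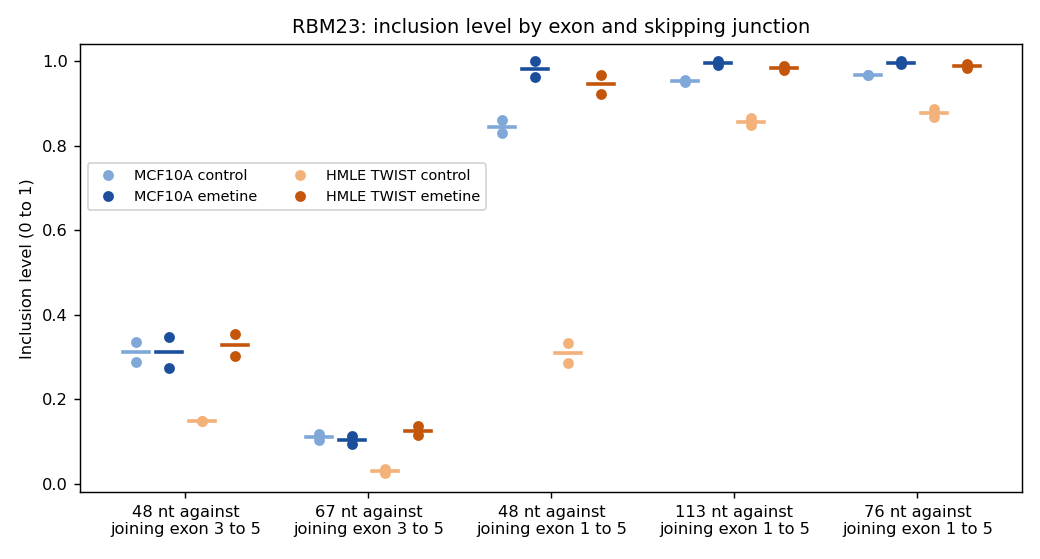
Inclusion level (y axis, 0 to 1) of RBM23 exon 4 (48 and 67 nucleotides), exon 3 (113) and exon 2 (76), each against the skipping junction named below it; points are libraries and bars means of 2. The HMLE TWIST controls lie below the other 3 groups in every column, most widely for the 48-nucleotide exon against the junction from exon 1 to 5.

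Between the control groups, 5 of 44 RBM events differed (6.48% of all 19301 events were called), all lower in HMLE TWIST than in MCF10A. Over all events 4.33% were called lower and 2.15% higher there, and 18 of the 44 RBM events had an adjusted p under 0.05 at any size (15.6% of all). The 5 called events were the RBM3 event above, both RBM6 exon 6 events and the 48-nucleotide RBM23 exon against both junctions. Both RBM6 events share an inclusion junction, and so do both RBM23 events, so the events of each pair are not independent. RBM23 was lower by 0.534 against the junction from exon 1 to 5 (difference -0.534, adjusted p = 2.69e-05) and by 0.163 against that from exon 3 to 5 (-0.163, adjusted p = 1.09e-06). RBM6 exon 6 differed by -0.145 (adjusted p = 0.00201) and -0.148 (adjusted p = 0.0174), and the latter call held in 1 of 4 fits that left out a library, being lost without either MCF10A control or the first HMLE TWIST control, with adjusted p up to 0.214. The RBM3 difference ranged from -0.785 without the first MCF10A control to -0.35 without the second. limma called none of the 44, with 19 at an unadjusted p under 0.05 and a smallest adjusted p of 0.0743, and it called 0.187% of all events. These control libraries also enter the emetine comparisons.

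RBM25 and RBM17 showed no called change. RBM25 had 3 tested events in MCF10A and 4 in HMLE TWIST, all of exons with a control mean of 0.0363 or less. Their changes lay between -0.0179 and 0.00981, with adjusted p from 0.0958 to 0.898. The 2 exons of RBM17, at chr10:6139011-6139151 and chr10:6155471-6155544, were included at 0.997 or more in the mean of each group, with at least 775 reads in every library, and too few skipping reads for a test.

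The junction reads of each gene were then compared, a comparison added after seeing the data. The value is the reads of the gene's deepest event, scaled so that the median gene did not change, and a gene was called where limma's adjusted p was under 0.05 and the level moved at least 2-fold. In a bulk library, fewer transcripts per cell and fewer cells that express a gene cannot be told apart. RBM5 had 429 and 354 scaled reads in MCF10A controls and 890 and 884 with emetine, a log2 change of 1.19 ± 0.13 (SE, adjusted p = 9.49e-06). RBM10 had 534 and 481 and then 995 and 1130 (log2 change 1.06 ± 0.12, adjusted p = 1.31e-05), and RBM23 had 414 and 387 and then 1071 and 1043 (1.40 ± 0.12, adjusted p = 9.98e-07). These 3 of 8 genes were called higher and none lower in MCF10A, where 16.4% of 9134 genes were called higher and 15.6% lower. RBM10 was below 2-fold without the second control (0.99) or the second emetine library (0.97).

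In HMLE TWIST, RBM5 had 390 and 326 scaled reads in controls and 1136 and 1299 with emetine (log2 change 1.77 ± 0.22, adjusted p = 4.25e-09), and RBM10 had 738 and 639 and then 1637 and 1931 (1.37 ± 0.21, adjusted p = 2.61e-07). These 2 of 8 genes were called higher, against 16.0% of 9091 genes. RBM23 had 418 and 478 and then 777 and 857, a log2 change of 0.87 (adjusted p = 0.00103) that missed the 2-fold size and passed it, at 1.13, when scaled by total reads, which raised the median gene by 0.26. RBM4, measured with splice sites shared with RBM14-RBM4 kept, had 800 and 813 scaled reads in MCF10A controls and 4479 and 4872 with emetine (log2 change 2.53 ± 0.10, adjusted p = 6.22e-09). In HMLE TWIST it had 986 and 1018 and then 4747 and 5448 (2.34 ± 0.19, adjusted p = 1.11e-16). With those sites kept, 16.4% and 16.0% of all genes were called higher. RBM6 had 336 and 355 and then 212 and 200 in MCF10A, a log2 change of -0.75 ± 0.15 (adjusted p = 0.00087) under the 2-fold size, and -0.09 in HMLE TWIST, which was 0.17 when scaled by total reads. With shared sites kept, as for RBM4, the deepest event listed under RBM6 shares a splice site with RBM5, and its log2 changes were calls of 1.25 (adjusted p = 3.07e-06) and 1.67 (adjusted p = 2.6e-09). RBM3, RBM17, RBM25 and RBM39 had log2 changes between -0.38 and 0.43 in the 2 lines and were not called.

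**Figure D5:**
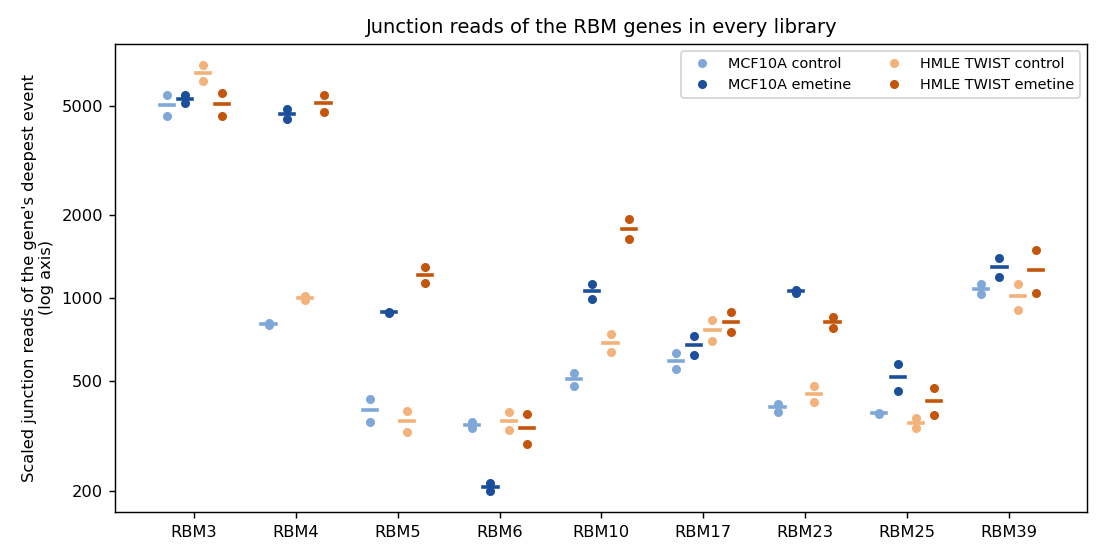
Scaled junction reads of the deepest event of each RBM gene (y axis, log scale) in every library; points are libraries, bars means of 2, and RBM4 includes the splice sites it shares with RBM14-RBM4. RBM4, RBM5, RBM10 and RBM23 lie higher with emetine in both lines, and RBM6, plotted without the sites it shares with RBM5, lies lower in MCF10A.

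The called RBM exons were then described by their control levels and annotation. The median control level of the 8 risen RBM events was 0.2 in MCF10A and that of the 9 risen events 0.215 in HMLE TWIST. The events not called had medians of 0.951 and 0.934, and the 3 that fell in HMLE TWIST 0.931. An exon that is nearly always included cannot rise by 0.1. Of the risen events, 2 of 8 and 2 of 9 had a length that is a multiple of 3, against 17 of 47 and 16 of 46 of those not called. A transcript was matched for 4 of 8 and 6 of 9 risen events, and for 45 of 47 and 45 of 46 of those not called. Events without a match could not be classed. Among matched risen events, only the RBM39 exons matched an annotated decay transcript whose stop lies in the exon. Such a match was also found for 4 and 5 of the events not called. A single transcript was kept per event, coding ones first, so exons in both kinds were not counted as decay exons. The matches used gene and exon and intron lengths, and 122 of the 164 RBM events matched.

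Lists of related genes were described for comparison. Of 34 other RBM genes, 21 and 20 had tested events; 7 of 48 events were called in MCF10A (14.6%) and 6 of 42 in HMLE TWIST (14.3%), beside 13.0% and 14.0% of all events. A 100-nucleotide exon of RBMXL1 rose by 0.247 and 0.216, and a 72-nucleotide exon of RBM26 fell by 0.114 and 0.103. Of 23 genes of splice-site recognition and spliceosome partners, 17 and 18 had tested events. In MCF10A 15 of 71 events were called (21.1%), 10 higher and 5 lower, beside 7.90% and 5.15% of all events. In HMLE TWIST 19 of 102 were called (18.6%), 14 higher and 5 lower, beside 6.11% and 7.91% of all events. In SF3B3, a subunit of the U2 particle, a 29-nucleotide exon rose from 0.025 ± 0.000459 to 0.559 ± 0.0117 (SD, n = 2) in MCF10A (adjusted p = 1.67e-10). Its means in HMLE TWIST were 0.0187 ± 0.00374 and 0.37 ± 0.0347 (adjusted p = 1.99e-06). In SRRM1, a splicing coactivator, a 130-nucleotide exon rose by 0.428 and 0.342.

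Of 5 genes known as splicing targets of RBM proteins, 3 of 22 events were called in MCF10A (13.6%, beside 13.0% of all events), all higher, and 4 of 19 in HMLE TWIST (21.1%, beside 14.0%), 3 higher and 1 lower, all in CASP2 and NUMB among the 4 genes tested. The 61-nucleotide exon of CASP2, a caspase gene whose exon RBM5 is known to regulate, rose from 0.12 ± 0.0331 to 0.774 ± 0.0556 (SD, n = 2) in MCF10A (adjusted p = 1.34e-06). Its HMLE TWIST means were 0.113 ± 0.0353 and 0.533 ± 0.0254 (adjusted p = 8.03e-05). The 144-nucleotide exon of NUMB, an inhibitor of Notch signalling whose exon RBM10 is known to repress, rose from 0.476 ± 0.0386 to 0.921 ± 0.0122 (adjusted p = 2.93e-08) in MCF10A. In HMLE TWIST it rose from 0.0497 ± 0.0311 to 0.38 ± 0.047 (adjusted p = 0.000104). These genes were named by the size of their smaller change in the 2 lines.

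The events of other genes closest to the RBM39 73-nucleotide exon were sought over 31810 events as the smallest root mean square difference of inclusion over the 8 libraries. They were a 54-nucleotide exon of DTNB (0.0343), a 64-nucleotide exon of RPAIN (0.0505) and a 77-nucleotide exon of CCNL1 (0.0506), a cyclin linked to splicing. In CCNL1 the levels were 0.296 and 0.219 in MCF10A controls, 0.581 and 0.46 with emetine, 0.272 and 0.192 in HMLE TWIST controls, and 0.356 and 0.351 with emetine. The likeness is a description, over libraries that the events share.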

How the data were processed

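Stranded paired-end libraries of polyadenylated RNA were analysed from the authors' deposited rMATS skipped-exon tables, one per line, with STAR 2.5.3a and build GRCh37 per the submitters' processing notes. The deposited tables give, for each event, inclusion and skipping junction read counts of each library, the effective lengths of both forms, the inclusion levels (deposited as scores from 0 to 1), and the authors' p-value, false discovery rate and difference. The cells name neither group nor replicate, so the groups were taken from the order in each table's name, and the libraries were not paired.

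Inclusion levels were recomputed from the counts and effective lengths. Events with at least 20 reads in each library and 10 reads of the rarer form were tested with a quasi-binomial model, whose dispersions were moderated with limma 3.58.1 (R 4.3.3) and held at 1 or more, with Benjamini-Hochberg adjustment over all tested events of a fit. The fits covered each line (4 libraries), the 2 control groups (4) and the interaction of line and emetine (8). The interaction was tested on the odds of inclusion, and its printed size is the difference of the 2 changes of inclusion level. The quasi-binomial p-values set a change against the spread between the 2 libraries of a group, moderated toward the spread shared over all tested events. They rest mostly on that shared spread, and limma p-values also use a moderated spread. The steps were tested on simulated data. Reads per gene, the reads of its deepest event that shares no splice site with another gene, were tested with limma. Exons were matched to GENCODE 29 transcripts by gene and by exon and intron lengths (Python 3.11.15); sequences come from those transcripts.

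The genes, lists and tests were chosen with earlier results of these data known. Of the 9 genes, exons called in a fit were described by library and the other tested exons by library, range or count. Of each other list, the 2 events with the largest smaller change of the 2 lines were named, and the 3 events most alike to the RBM39 exon.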

Additional observations from a re-analysis of the deposited data

Results flagged for a closer look

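The response to emetine of RBM23 exon 4 differed between the lines by the test of the difference itself, made on the odds of inclusion. The sizes given are differences of inclusion level. For the 48-nucleotide form between exons 3 and 5, the change in HMLE TWIST exceeded that in MCF10A by 0.181 (quasi-binomial interaction, adjusted p = 0.0014; limma 0.401; 4 libraries in each line). For the 67-nucleotide form the difference was 0.103 (adjusted p = 0.000606; limma 0.259), and it lay under the size of 0.1 in 4 of 8 fits that left out a library. The inclusion of both forms was higher in both emetine libraries than in both controls of HMLE TWIST, and overlapped in MCF10A. The 2 forms share their skipping reads, and the controls of HMLE TWIST were also the lowest of the 4 groups. What lies behind the difference was not tested.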

How the results depend on the processing

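With 2 libraries a group, the spread of a single event was poorly known, and the calls rest on the dispersion shared across events. Of the RBM events changed in MCF10A (9), HMLE TWIST (12), between controls (5) and by interaction (2), limma called 5, 7, 0 and 0, and a size threshold of 0.2 left 5, 2, 2 and 0. With each event's own dispersion alone none passed in any of the 4 quasi-binomial fits (0 in all), nor did any other event, with 4666, 6019, 1436 and 1987 of all events at an unadjusted p under 0.05. Using the own dispersion where larger left 1 interaction. In HMLE TWIST the 3 falls were lost without length correction, at a size of 0.2 and without the first control. Between controls the count was 8 without length correction, 3 with at least 50 reads per library, 0 with no minimum for the rarer form (2554 of all events at an unadjusted p under 0.05) and 12 at a size of 0.05. Interactions numbered 4 with no such minimum. Leaving out 1 library, which assumes that the lone library of a group varies like the others, gave 6 to 9, 8 to 10, 4 to 6 and 1 to 5 calls. The 1 came without the first control or first emetine library of MCF10A or the first control or second emetine library of HMLE TWIST, the 5 without the first emetine library of HMLE TWIST. Over all events, limma called 2012 against 3329 in MCF10A, 36 against 1250 between controls and 0 against 509 interactions, and leaving out 1 library gave 315 to 472 interactions.

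Directions turned in these cases. By its other event, the change of RBM6 exon 6 was -0.234 against 0.192 in MCF10A and -0.036 against 0.119 in HMLE TWIST, and the third of these ranged from -0.0877 to 0.0158 over fits that left out a library. The RBM23 48-nucleotide exon in MCF10A (-4.9e-05) was 0.024 without the first control, 0.0362 without the first emetine library and 0.136 or 0.0356 by its other events. Leaving out a library gave a range of -0.0176 to 0.00124 for the RBM23 67-nucleotide exon in MCF10A and of -0.0669 to 0.368 for the RBM3 269-nucleotide exon there. In HMLE TWIST the other events of RBM23 exons 3 and 2 gave -0.0037 and -0.00477. Log2 reads of RBM6 in HMLE TWIST were 0.17 by total reads, -0.27 to 0.092 over fits that left out a library, and with sites shared with RBM5 kept 1.67, and 1.25 in MCF10A, both called. The same fits gave -0.021 to 0.24 for RBM17 in HMLE TWIST and -0.055 to 0.20 for RBM3 in MCF10A. The cause was not tested. Of the alternative values of single called exons, 49 in MCF10A and 59 in HMLE TWIST kept direction and call and 27 and 43 lost the call. Of those of exons not called, 62 and 21 stayed uncalled in the same direction and 3 and 2 became calls. No paired analysis was possible because the cells of the tables carry no replicate numbers.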
